A study of Caenorhabditis elegans with 6 samples.

Results

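The insulin receptor to DAF-16 signalling chain of Caenorhabditis elegans was followed here through 9 genes, looked up in the deposited count and RPKM tables, out of 46589 genes in all. They are daf-2 (the insulin/IGF-1 receptor), ist-1 (an insulin receptor substrate homologue), age-1 (the catalytic subunit of phosphatidylinositol 3-kinase), pdk-1, akt-1, akt-2 and sgk-1 (protein kinases below the lipid signal), daf-18 (a lipid phosphatase) and daf-16 (the FoxO transcription factor at the end of the chain). The genes were taken by name and not by their values, and all 9 passed the filter on low counts.

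RNA came from whole adults of the wild-type strain Bristol N2, sampled 5 days past L4, which is the final stage of the larva. By the labels, 3 libraries had RNA interference (RNAi) against bcat-1 and 3 were controls, of which the labels say no more. According to the methods of the study, worms ate E. coli HT115 that make double-stranded RNA, the control bacteria carried the empty feeding vector, and progeny were washed away daily. Feeding RNAi in this strain reaches most tissues but works poorly in neurons, and bcat-1 encodes the enzyme that starts the breakdown of leucine, isoleucine and valine.

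In worms, insulin-like peptides bind DAF-2, which recruits the lipid kinase AGE-1. The lipid it makes is taken back by DAF-18, and while it is present PDK-1 activates AKT-1, AKT-2 and SGK-1. The AKT kinases phosphorylate DAF-16 and so keep it out of the nucleus, and when the signal weakens DAF-16 enters the nucleus and turns on genes of stress resistance, fat metabolism and longevity. The chain is best known for its control of adult lifespan and of the dauer larva, and most of it works through phosphorylation and localisation, which transcript levels do not record.

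The libraries held 38347771 to 44137496 counted reads after bcat-1 RNAi and 32784443 to 43274827 in the controls. The RNAi target itself was not reduced as a group, and bcat-1 stood at 223, 102 and 287 CPM in bcat-1 RNAi replicates 1 to 3, against 135.0, 135.2 and 162 CPM in control replicates 1 to 3 (log2 difference 0.50, standard error 0.30, edgeR adjusted p = 0.169). Without bcat-1 RNAi replicate 2 it was called higher (log2 0.79, edgeR adjusted p = 0.0029), and without bcat-1 RNAi replicate 3 the value was 0.19. The groups overlap, with bcat-1 RNAi replicate 2 below each control and replicates 1 and 3 above each. These counts thus do not bear out the knockdown, nor do they settle a rise. The paper reports that RNAi abolished bcat-1 expression, and its methods describe a shorter treatment for that measurement. Here "bcat-1 RNAi" stands for the libraries labelled bcat-1 RNAi, whatever their knockdown was. CPM are counts per 1e6 counted reads scaled between libraries with TMM, the trimmed mean of log ratios. bcat-1 RNAi replicate 3 stood apart, with a chi-square of 48.1 and 63.0 per degree of freedom against RNAi replicates 1 and 2, while that between those 2 was 13.8. Ribosomal RNA genes took 0.480% to 1.41% of reads after bcat-1 RNAi and 0.152% to 0.385% in the controls. Of the markers of tissues, all 9 tested for germline and oocytes fell, with a summed level of 4598 to 5584 CPM after bcat-1 RNAi and 9342 to 11210 CPM in the controls, and 9 of 10 neuronal markers rose (516 to 566 CPM after bcat-1 RNAi and 345 to 363 CPM in the controls), with a list median of log2 1.45. The exception, snb-1, is the most abundant of them, and the other 9 summed to 297 to 313 CPM after bcat-1 RNAi and 108 to 126 CPM in the controls. All 5 genes of larval moulting also rose (462 to 581 CPM after bcat-1 RNAi and 52.7 to 99.8 CPM in the controls), and so did 3 of 5 markers of the hypodermis (397 to 443 CPM after bcat-1 RNAi and 247 to 303 CPM in the controls), although the labels call both groups adult. The remaining hypodermis markers, col-19 (log2 −1.01, edgeR adjusted p = 0.0779) and lin-26 (log2 −0.25, edgeR adjusted p = 0.0677), were not called. Both were lower in each RNAi library than in each control, and lin-26 is the most abundant of that list. Of the other marker lists, 3 of 7 intestinal genes rose and 2 fell. Most of the intestinal sum (9235 to 11666 CPM after bcat-1 RNAi and 17141 to 21785 CPM in the controls) was the yolk protein gene vit-6, which fell, and the sums of the other 6 overlapped (491 to 666 CPM after bcat-1 RNAi and 597 to 676 CPM in the controls). Of the muscle markers, 1 of 5 body wall muscle genes rose and 2 fell (398 to 499 CPM after bcat-1 RNAi and 463 to 542 CPM in the controls). Of the sperm genes, 3 of 5 passed the filter and all 3 rose (2.69 to 3.56 CPM after bcat-1 RNAi and 0.762 to 1.26 CPM in the controls). Of the early embryo genes, 2 of 5 passed and 1 fell (3.27 to 4.27 CPM after bcat-1 RNAi and 4.88 to 11.5 CPM in the controls), and med-1, med-2 and end-1 were too low to test. The part of these shifts in the results below was not tested, and in RNA of whole animals fewer cells of a type and less RNA per cell cannot be told apart.

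Most of the chain was lower after bcat-1 RNAi. Of the 9 members 6 fell (daf-2, age-1, pdk-1, akt-1, sgk-1 and daf-18), ist-1 rose, and akt-2 and daf-16 did not pass the test, which was the quasi-likelihood F test of edgeR, adjusted by Benjamini-Hochberg over all 16391 genes tested and called at an adjusted p under 0.05. Among all tested genes 61.6% were called, 36% higher and 25.6% lower. The share called depends strongly on the level of a gene. Between 100 and 1000 CPM, where daf-2, age-1, akt-1, daf-18 and daf-16 lie, 65.6% of genes were lower, so that 4 lower out of these 5 is near the background of abundant genes. Between 10 and 100 CPM, where pdk-1, akt-2 and sgk-1 lie, 34.5% were lower and 25.4% higher. Under 10 CPM, where ist-1 lies, 52.3% were higher and 7.28% lower. Without control replicate 1 the members called numbered 4, all lower (age-1, pdk-1, akt-1 and daf-18), and without control replicate 1 and bcat-1 RNAi replicate 3 together 5 fell (those and daf-2) and akt-2 rose.

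**Figure D1:**
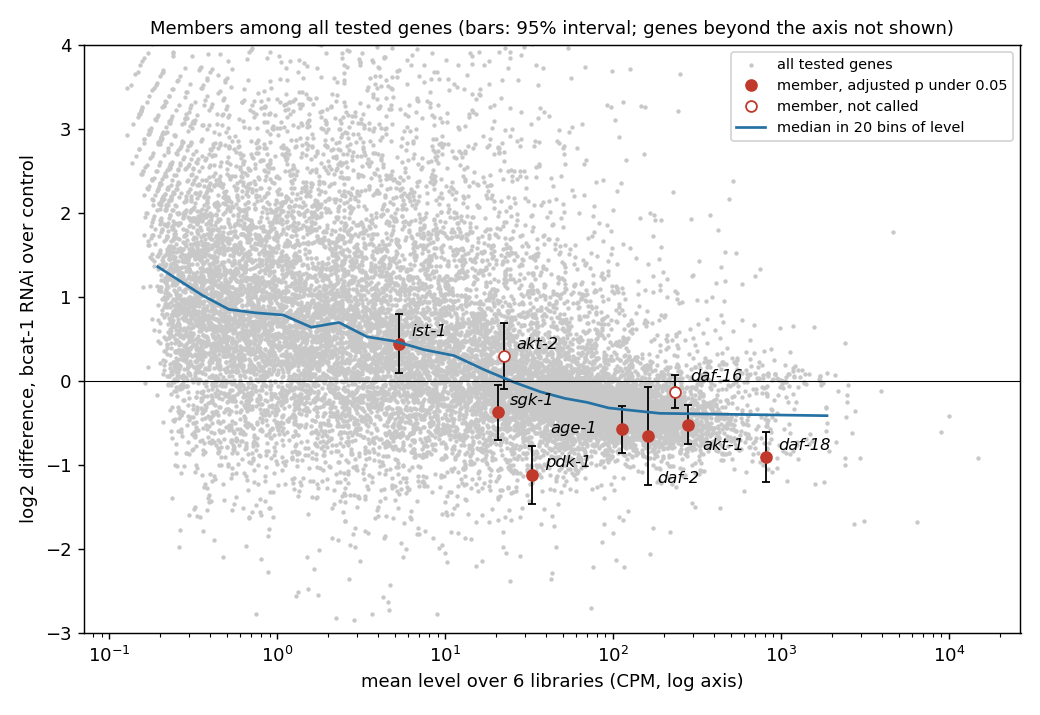
Mean level over 6 libraries in CPM on a log axis (horizontal) against the log2 difference of bcat-1 RNAi over control (vertical). Grey points are tested genes, the blue line their median in 20 bins of level, and red points the 9 members with 95% intervals (filled: adjusted p under 0.05, open: not called). The blue line falls with level, and pdk-1 (log2 −1.11) and daf-18 (log2 −0.91) have the lowest log2 differences of the members.

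At the top of the chain the receptor gene daf-2 was lower, by an amount that 1 library decides. The gene, Y55D5A.5, lies on chromosome III (minus strand, 2994514 to 3040846 in WBcel235), a span of 46333 bases with 18 merged exons and 7 annotated transcripts. Its level was 152, 156 and 68.4 CPM in bcat-1 RNAi replicates 1 to 3, against 194, 208 and 190.1 CPM in control replicates 1 to 3. All RNAi libraries lie below all controls, but replicate 3 is far below its fellows. The mean was 125 ± 49.3 CPM after bcat-1 RNAi and 197 ± 9.17 CPM in the controls (SD, n = 3 each), a log2 difference of −0.65 with a 95% interval of −1.23 to −0.08 (edgeR adjusted p = 0.0498). Without bcat-1 RNAi replicate 3 the log2 difference was −0.34 and was still called (edgeR adjusted p = 0.0017). Without control replicate 1, 2 or 3 the call was lost, at an edgeR adjusted p of 0.0794, 0.146 and 0.0618.

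The insulin receptor substrate homologue ist-1 was the only member to rise, and it was the weakest in level. It lies on chromosome X (plus strand, 7126648 to 7139666) as C54D1.3, with 19 merged exons and 4 transcripts. Its level was 6.29, 6.08 and 6.03 CPM after bcat-1 RNAi and 4.48, 3.91 and 5.10 CPM in the controls, from 266 to 288 reads per library after bcat-1 RNAi and 113 to 198 in the controls. The groups do not overlap. The log2 difference was 0.44 with a 95% interval of 0.10 to 0.79 (edgeR adjusted p = 0.0316). This call did not hold with DESeq2 (adjusted p = 0.244), with no filter (0.101) or without bcat-1 RNAi replicate 1 or 2 or control replicate 1 or 2 (edgeR adjusted p = 0.114, 0.0992, 0.0797 and 0.0969), and most genes at this level had a positive log2 difference too, as the plot of members among all tested genes shows.

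The lipid kinase and the lipid phosphatase, which act against each other on the same lipid, were both lower, daf-18 by more. The kinase gene age-1 (B0334.8) lies on chromosome II (minus strand, 11519328 to 11527054) and has 9 merged exons. Its level was 96.8, 101 and 75.3 CPM after bcat-1 RNAi, against 129, 148 and 130.3 CPM in the controls. The groups are apart, and bcat-1 RNAi replicate 3 is again the lowest. The log2 difference was −0.58 with a 95% interval of −0.86 to −0.30 (edgeR adjusted p = 0.0037). The phosphatase gene daf-18 (T07A9.6) lies on chromosome IV (minus strand, 420011 to 425177), with 7 merged exons and 1 transcript, and was the most abundant member. Its level was 595, 609 and 488 CPM after bcat-1 RNAi and 1026, 1185 and 963 CPM in the controls. The highest RNAi library lies far below the lowest control. The log2 difference of −0.91 has a 95% interval of −1.20 to −0.61 (edgeR adjusted p = 4.5e-04), which is 0.533-fold (0.435 to 0.654). The difference of daf-18 was lower than that of all but 3.78% of tested genes of any level. Its level lies between 100 and 1000 CPM, where 65.6% were called lower, and no rank at like level was taken.

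The kinase gene pdk-1 showed the largest difference of the chain. PDK-1 phosphorylates the AKT kinases, and its gene (H42K12.1) lies on chromosome X (plus strand, 1321344 to 1327986), with 11 merged exons and 2 transcripts. Its level was 21.2, 25.2 and 16.38 CPM after bcat-1 RNAi, against 44.8, 43.0 and 48.0 CPM in the controls. Each control library is well above each RNAi library. The log2 difference was −1.11 with a 95% interval of −1.46 to −0.77 (edgeR adjusted p = 3.4e-04), or 0.462-fold (0.364 to 0.586), and 2.099% of tested genes of any level had a lower value. Leaving out each library in turn gave −1.29 to −0.95, called each time.

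Of the kinases below PDK-1, akt-1 and sgk-1 were lower and akt-2 was not. The gene akt-1 (C12D8.10) lies on chromosome V (plus strand, 10248905 to 10252845), with 10 merged exons. It stood at 237, 242 and 204 CPM after bcat-1 RNAi and at 323, 353 and 303 CPM in the controls. The groups are apart (log2 −0.52, 95% interval −0.76 to −0.28, edgeR adjusted p = 0.0028). Its paralogue akt-2 (F28H6.1) lies on chromosome X (plus strand, 14147700 to 14152070), with 8 merged exons, and stood at 27.4, 26.5 and 19.96 CPM after bcat-1 RNAi and at 23.2, 21.1 and 15.7 CPM in the controls. Its groups overlap, since bcat-1 RNAi replicate 3 lies below 2 of the controls (log2 0.30, 95% interval −0.10 to 0.69, edgeR adjusted p = 0.163). Without that library akt-2 was called higher (log2 0.45, edgeR adjusted p = 0.0399). Without control replicate 3 its value was 0.13. The kinase gene sgk-1 (W10G6.2), on chromosome X (minus strand, 16254842 to 16262122) with 11 merged exons, stood at 20.8, 17.4 and 15.5 CPM after bcat-1 RNAi and at 23.1, 20.5 and 25.8 CPM in the controls. Its groups overlap slightly, by bcat-1 RNAi replicate 1 and control replicate 2. The call of sgk-1 was marginal (log2 −0.37, 95% interval −0.70 to −0.05, edgeR adjusted p = 0.0473), and it was lost without bcat-1 RNAi replicate 2 or 3 or control replicate 1 or 3 (edgeR adjusted p = 0.129, 0.145, 0.0788 and 0.128).

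With TMM scaling the effector gene daf-16 differed least. The gene (R13H8.1) lies on chromosome I (plus strand, 10750498 to 10776703), with 15 merged exons and 11 annotated transcripts, which the counts do not separate. Its level was 227, 225 and 221 CPM after bcat-1 RNAi and 241, 261 and 232 CPM in the controls. On this scale each RNAi library lies below each control, with an SD of 3.01 CPM among the RNAi libraries. The log2 difference was −0.13 with a 95% interval of −0.32 to 0.07 (edgeR adjusted p = 0.235), and the interval in fold terms runs from 0.80 to 1.05. The sign depends on the scaling, because with library size only the value was 0.13 (edgeR adjusted p = 0.124). So does its place as the least changed member, because with DESeq2's size factors akt-2 differed less (log2 0.18, against −0.25 for daf-16). In RPKM, which the authors scaled by library size, daf-16 stood at 54.2, 54.7 and 57.8 after bcat-1 RNAi and at 51.1, 52.3 and 49.4 in the controls, which puts each RNAi library above each control.

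**Figure D2:**
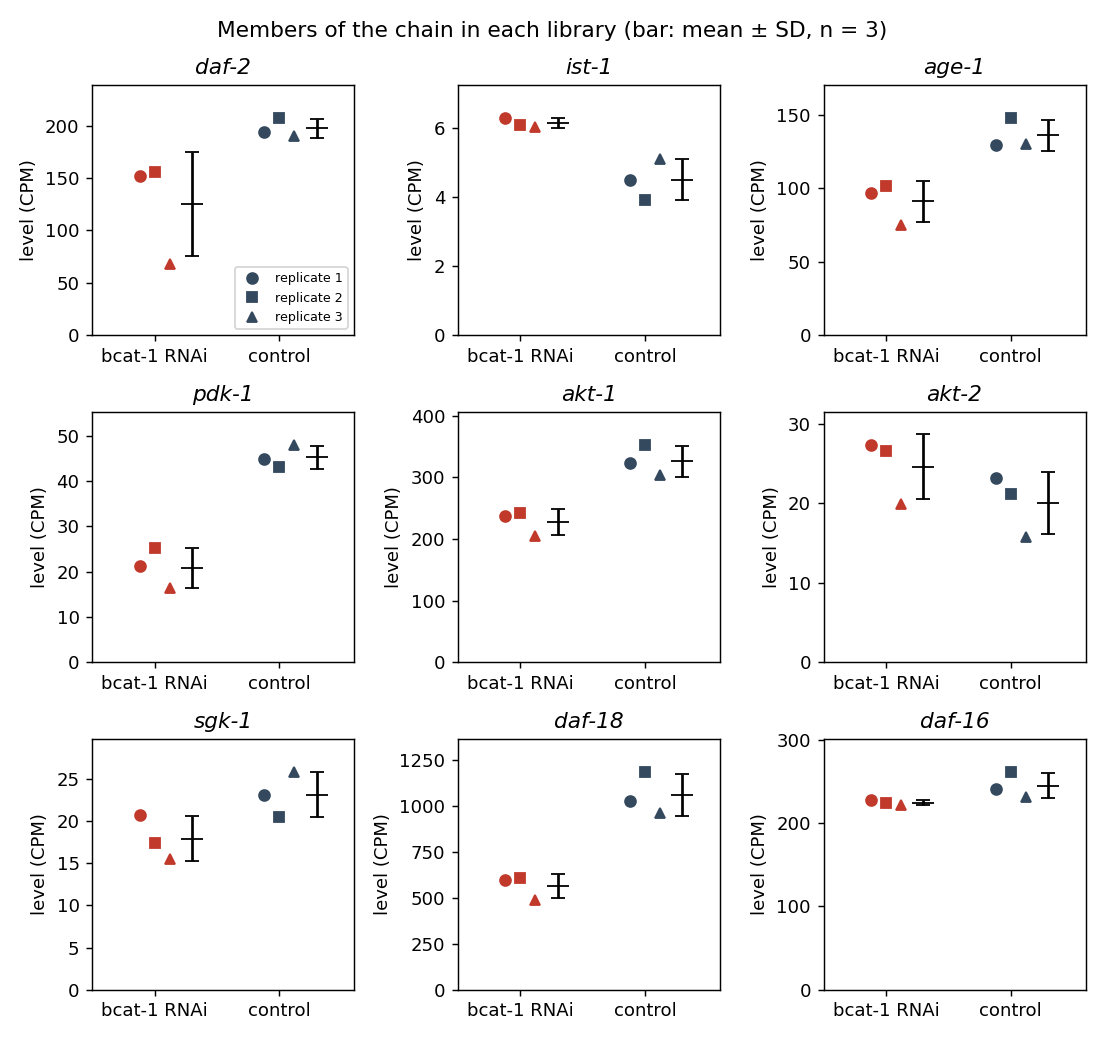
Level of each member in CPM (vertical, from 0) in the 3 bcat-1 RNAi libraries (red) and the 3 control libraries (dark grey). Circle, square and triangle are replicates 1, 2 and 3, and the bars are the mean ± SD (n = 3). The groups are apart for daf-2, ist-1, age-1, pdk-1, akt-1, daf-18 and daf-16 and overlap for akt-2 and sgk-1, and the triangle of bcat-1 RNAi replicate 3 is the lowest of its group in all 9 panels.

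The values of a group did not overlap those of the other for 7 of the 9 members, ist-1 higher and 6 lower. Among all tested genes this held for 71.2%, with 40.2% higher and 31% lower. Within the RNAi group, replicate 3 was the lowest for all 9 members in TMM-scaled CPM and for 7 of 9 in RPKM, the exceptions there being ist-1 and daf-16. Relative to the mean of the other RNAi libraries, replicate 3 had daf-2 at a log2 value of −1.17, at percentile 0.897 of all tested genes, whereas pdk-1 was at −0.50 (percentile 7.78) and daf-16 at −0.03 (percentile 44.2). The median over all tested genes was 0.02. Among the controls, replicate 2 was the highest for 5 members and replicate 3 the lowest for 5.

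Scaling moved all members together. The median log2 difference over all tested genes was 0.15 with TMM, 0.02 with DESeq2's size factors, 0.28 with the upper quartile and 0.39 with library size only. Relative to that median, pdk-1 lay at −1.26, daf-18 at −1.05, daf-2 at −0.80, age-1 at −0.72, akt-1 at −0.66, sgk-1 at −0.52, daf-16 at −0.27, akt-2 at 0.15 and ist-1 at 0.30, and across these 4 scalings the widest range was that of daf-2, from −0.82 to −0.79. The median covers genes of every level, and with TMM 65.6% of those between 100 and 1000 CPM were called lower. Calls of all tested genes split into 5907 higher and 4189 lower with TMM, into 6614 and 2932 with the upper quartile, into 7329 and 1952 with library size only and into 4755 and 5093 with DESeq2. The falls of age-1, pdk-1, akt-1 and daf-18 were called under all 15 alternatives run, as the plot of member differences under each setting shows.

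**Figure D3:**
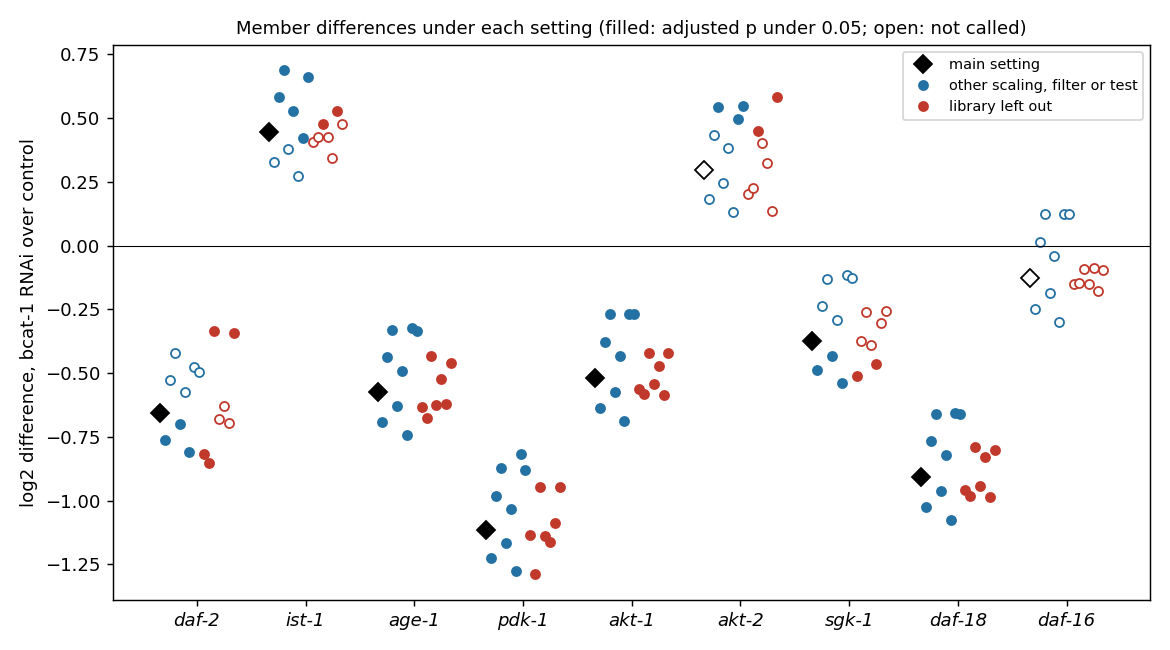
Log2 difference of bcat-1 RNAi over control (vertical) for each member under the main setting (diamond), other scalings, filters and tests (blue) and with libraries left out (red). Filled symbols have an adjusted p under 0.05. For age-1, pdk-1, akt-1 and daf-18 all symbols are filled and below 0, and for daf-16 all are open, on both sides of 0.

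Levels were compared between genes per exon length, in RPKM. In the controls the order was daf-18 (289 ± 21.03), akt-1 (128 ± 5.68), daf-16 (50.9 ± 1.44), age-1 (33.1 ± 1.37), daf-2 (29.3 ± 0.361), pdk-1 (17.2 ± 1.49), sgk-1 (12.9 ± 1.89), akt-2 (7.71 ± 1.45) and ist-1 (1.21 ± 0.197 RPKM, SD, n = 3). No neighbours in that order overlapped in their control values. After bcat-1 RNAi daf-18 (183 ± 14.05 RPKM), akt-1 (107 ± 5.35) and daf-16 (55.6 ± 1.97) kept the first places, in that order. There the values of age-1 (23.003 to 28.9 RPKM) and daf-2 (12.8 to 27.1) overlapped, as did those of sgk-1 (10.8 to 13.3), akt-2 (9.65 to 12.1) and pdk-1 (7.81 to 11.2), so pdk-1 no longer stood above the others. The phosphatase gene daf-18 made up 42.8% of the summed RPKM of the chain after bcat-1 RNAi and 50.6% in the controls, and akt-2 made up 2.62% after bcat-1 RNAi and 1.35% in the controls.

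**Figure D4:**
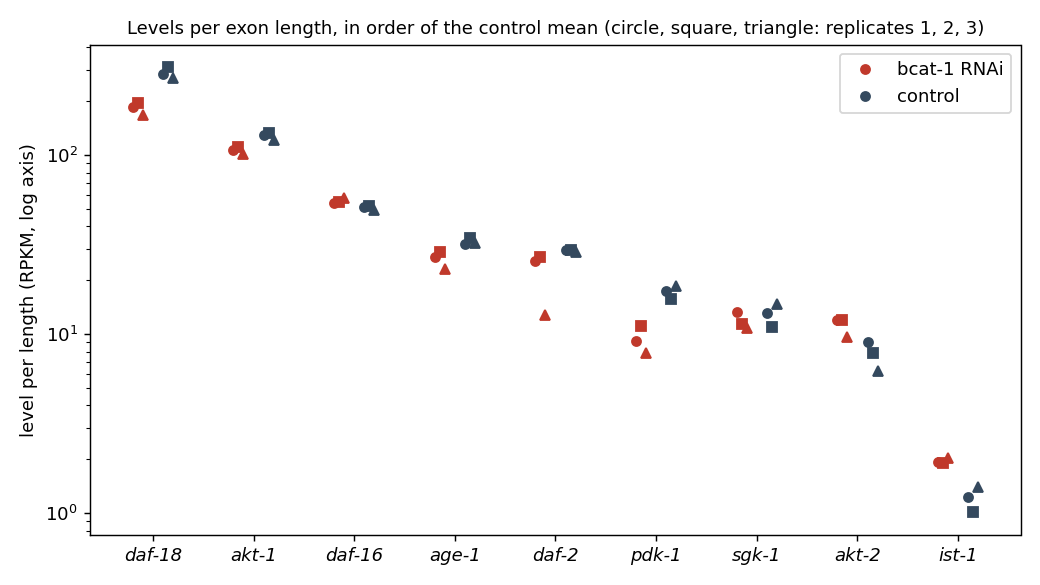
Level per exon length in RPKM on a log axis (vertical) for the 9 members, in order of their control mean, with bcat-1 RNAi libraries in red to the left of control libraries in dark grey. Symbols are replicates 1, 2 and 3. daf-18 lies between 167 and 195 RPKM after bcat-1 RNAi and between 270 and 311 RPKM in the controls, and ist-1 lies lowest in both groups.

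Ratios between members of a library do not depend on its scaling, and 4 were set up along the chain. With 3 libraries against 3 the exact permutation test cannot give a p below 0.1, so none of them can pass a threshold of 0.05. The ratio of akt-2 to akt-1 was 0.113, 0.107 and 0.0955 after bcat-1 RNAi, against 0.0703, 0.0585 and 0.0507 in the controls. Each RNAi value is above each control, with a log2 difference of 0.82 (two-sided exact permutation p = 0.1, adjusted over the 4 ratios p = 0.133). The ratio of daf-18 to age-1 was 6.90, 6.74 and 7.28 after bcat-1 RNAi and 8.90, 8.98 and 8.30 in the controls (log2 difference −0.32, exact permutation p = 0.1, adjusted p = 0.133), so the phosphatase transcript was lower relative to the kinase transcript in each RNAi library. The ratio of daf-16 to daf-2 was 2.101, 2.02 and 4.54 after bcat-1 RNAi, against 1.74, 1.76 and 1.71 in the controls. These groups are apart too, but most of the log2 difference of 0.62 (exact permutation p = 0.1, adjusted p = 0.133) came from bcat-1 RNAi replicate 3, and without it the value was 0.25. For sgk-1 over akt-1 the ratios overlapped, at 0.124, 0.102 and 0.107 after bcat-1 RNAi and 0.101, 0.0822 and 0.121 in the controls (log2 difference 0.14, exact permutation p = 0.4, adjusted p = 0.4). Without control replicate 2 that difference was 0.0014.

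Few exons of the members are shared with other genes. By the annotation, age-1 shares 192 exon bases (4.89%) with B0334.10, daf-16 shares 84 (2.28%) with H36N01.5, pdk-1 shares 15 with F21E9.2 and akt-1 shares 8 with rop-1, all on the other strand, which these libraries do not record. B0334.10 had 2 to 11 reads per library, F21E9.2 had 1 to 20 and H36N01.5 had 0, while rop-1 had 6094 to 13547. The other 5 members share no exon base with another gene.

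Genes that act on the chain from the side went both ways, the falls among them mostly small. In a list of 27 adaptors, phosphatase subunits, and partners and modifiers of AKT and DAF-16, 24 passed the filter, of which 13 fell, 6 rose and 5 were not called. That is 54.2% lower and 25.0% higher, beside 25.6% and 36% of all tested genes, with a list median of −0.35 against 0.15 over all tested genes. Most of these regulators lie between 100 and 1000 CPM, however, where 65.6% of genes were lower and 6.74% higher. The share of falls is that of the whole list, genes of lower level included, so it cannot be set directly against that band. With library size only 4 fell and 8 rose. The largest falls were those of rle-1, the ubiquitin ligase that marks DAF-16 for degradation (111 ± 39.5 CPM after bcat-1 RNAi and 208 ± 12.2 CPM in the controls, log2 −0.90, edgeR adjusted p = 0.0087), sinh-1, a TORC2 subunit (log2 −0.73, adjusted p = 0.0201), and imb-2, the importin that carries DAF-16 into the nucleus (log2 −0.71, adjusted p = 0.0086). In bcat-1 RNAi replicates 1 to 3 rle-1 stood at 131, 137 and 65.9 CPM and imb-2 at 194, 184 and 112 CPM. Leaving out 1 library at a time gave falls as small as −0.61 for rle-1 and −0.48 for imb-2, both still called. Without bcat-1 RNAi replicate 3 the value of sinh-1 was −0.45, and without control replicate 2 it lost its call (edgeR adjusted p = 0.0660), as it did with library size only (log2 −0.49, 0.0812) and with limma on RPKM plus 1 (−0.49, 0.0799) and plus 0.1 (−0.54, 0.0772).

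The largest rises among these regulators exceeded the largest falls in size. Of the genes named next, jnk-1 and eak-6 lie under 10 CPM, where 52.3% of tested genes were higher. The gene cst-1 lies between 10 and 100 CPM, where 25.4% were higher. The stress kinase gene jnk-1, which is expressed in neurons and whose product phosphorylates DAF-16, rose to 9.84 ± 0.790 CPM after bcat-1 RNAi, against 1.75 ± 0.165 CPM in the controls (SD, n = 3, log2 2.48, edgeR adjusted p = 6.7e-06). The neuronal markers rose as well, with a median of log2 1.45 and 2.70 for unc-10 (edgeR adjusted p = 3.5e-06), the most of the list, and their part in this was not tested. Next came eak-6, which was found with other genes that enhance loss of akt-1, at 0.615 ± 0.167 CPM after bcat-1 RNAi and 0.181 ± 0.071 CPM in the controls (log2 1.77, edgeR adjusted p = 0.0038), and cst-1, the MST kinase gene, at 78.4 ± 1.19 CPM after bcat-1 RNAi and 25.4 ± 3.60 CPM in the controls (log2 1.62, edgeR adjusted p = 1.0e-05). The worm has a close second copy of cst-1, cst-2, so its reads are uncertain. The adaptor gene of AGE-1, aap-1, which was picked out after its values were seen, fell with age-1 (log2 −0.34, edgeR adjusted p = 0.0195) but was called in 10 of 15 alternatives only. It lost its call without control replicate 2 (edgeR adjusted p = 0.0588), with the upper quartile (log2 −0.20, 0.0629) and with library size only (log2 −0.09, 0.315), and limma on RPKM plus 1 and plus 0.1 gave −0.09 as well (0.303 and 0.318). 3 genes (eak-3, eak-4 and sdf-9) were too low to test.

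Known targets of DAF-16 did not move as one. Of 24 genes known to be activated by DAF-16, 23 passed the filter, of which 6 rose, 4 fell and 13 were not called. That is 26.1% higher and 17.4% lower, beside 36% and 25.6% of all tested genes. The list median was 0.09, against 0.15 over all tested genes, and it was −0.03 with DESeq2's size factors. The largest rises were those of sodh-1, an alcohol dehydrogenase (263 ± 39.1 CPM after bcat-1 RNAi and 40.4 ± 31.6 CPM in the controls, log2 2.70, edgeR adjusted p = 0.0010), the small heat shock protein hsp-12.6 (10.4 ± 1.42 CPM after bcat-1 RNAi and 1.67 ± 0.467 CPM in the controls, log2 2.63, adjusted p = 2.4e-05) and the metallothionein mtl-1 (118.6 ± 4.73 CPM after bcat-1 RNAi and 34.8 ± 5.70 CPM in the controls, log2 1.77, adjusted p = 9.8e-06). The largest falls were those of the fatty acid desaturase fat-7 (log2 −2.37, edgeR adjusted p = 2.1e-04), the cytochrome P450 cyp-35B1 (log2 −1.56, adjusted p = 0.0092) and the lysosomal lipase lipl-4 (log2 −0.85, adjusted p = 0.0220). Without control replicate 1 the value of cyp-35B1 was −0.89, and with limma on RPKM plus 1 and plus 0.1 it was not called (−0.92 and −1.07, adjusted p = 0.0765 and 0.0682). The gene lipl-4, at under 1 CPM in both groups on average, was called in only 5 of the 14 alternatives that tested it. It lost its call without bcat-1 RNAi replicate 1 or 3 or control replicate 1 or 2 (edgeR adjusted p of up to 0.0913) and without control replicate 1 and bcat-1 RNAi replicate 3 together (0.131). With the upper quartile (0.0501), library size only (0.0910) and limma on RPKM plus 1 and plus 0.1 (log2 −0.21 and −0.49, 0.0835 and 0.0982) it was not called either. The superoxide dismutase sod-3, the usual reporter of DAF-16 activity, was picked out after its values were seen and stood at 1.97 ± 0.255 CPM after bcat-1 RNAi and 2.04 ± 0.322 CPM in the controls (log2 −0.04, edgeR adjusted p = 0.861), with a sign that turned under other settings.

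Genes known to be held down where DAF-16 is active were mostly lower. Of 13 such genes 12 passed the filter, of which 7 fell, 1 rose and 4 were not called, which is 58.3% lower and 8.33% higher, beside 25.6% and 36% of all tested genes. The list median was −0.80. The largest falls were those of dod-22 (0.398 ± 0.096 CPM after bcat-1 RNAi and 2.27 ± 0.522 CPM in the controls, log2 −2.51, edgeR adjusted p = 9.4e-05), the insulin-like peptide gene ins-7 (5.43 ± 1.66 CPM after bcat-1 RNAi and 24.98 ± 3.24 CPM in the controls, log2 −2.20, adjusted p = 4.8e-05) and dod-17 (log2 −1.78, adjusted p = 0.0026). The levels of dod-17 were 1.86, 1.35 and 1.29 CPM after bcat-1 RNAi and 8.34, 3.71 and 3.35 CPM in the controls. Leaving out 1 library at a time gave falls of dod-17 as small as −1.25, still called. The guanylyl cyclase gcy-6 of sensory neurons rose (0.494 ± 0.118 CPM after bcat-1 RNAi and 0.152 ± 0.063 CPM in the controls, log2 1.64, edgeR adjusted p = 0.0049). It had 9, 3 and 5 reads in control replicates 1 to 3. Under 10 CPM, where gcy-6 lies, 52.3% of tested genes were higher and 7.28% lower. The neuronal markers rose as well (median log2 1.45), and their part in this was not tested.

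**Figure D5:**
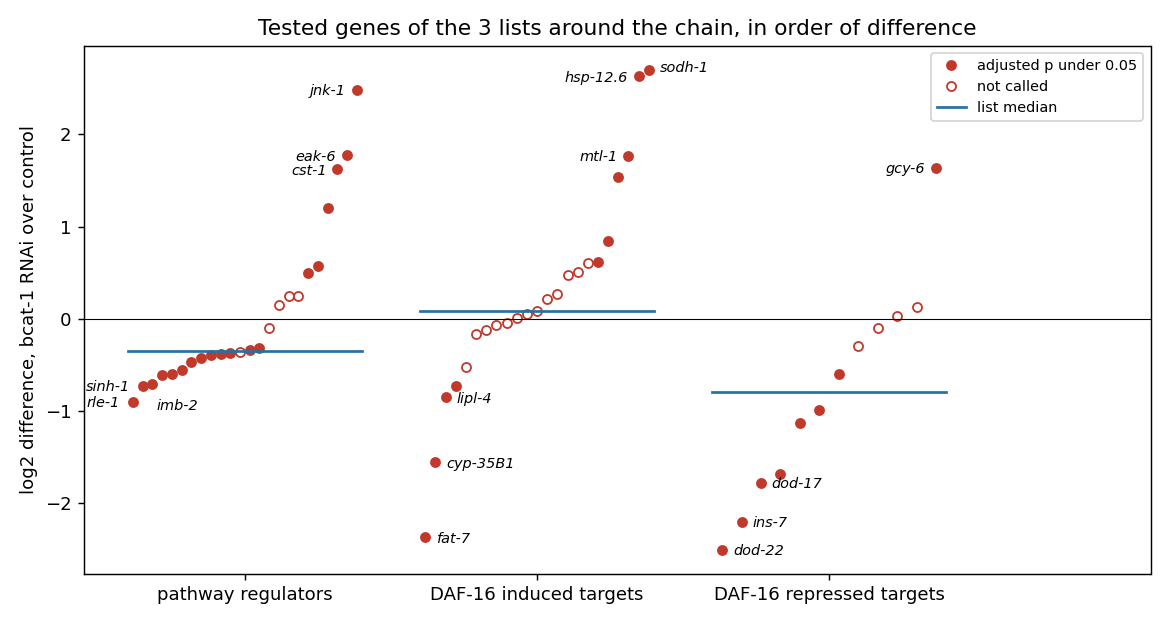
Log2 difference of bcat-1 RNAi over control (vertical) of the tested genes in 3 lists around the chain, ordered by value within each list. Filled points have an adjusted p under 0.05, open points were not called and the blue bar is the list median (−0.35, 0.09 and −0.80 from left to right).

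The pattern over the 6 libraries was matched with that of 8012 other genes of at least 10 CPM, by Pearson's r of log2 CPM, as a description. Most like daf-2 were daf-21, an HSP90 chaperone (r = 0.9997), Y50D7A.11 (r = 0.9995) and Y48C3A.12 (r = 0.9993), all of which share its low value in bcat-1 RNAi replicate 3. For daf-21 the levels were 2714, 2709 and 1796 CPM after bcat-1 RNAi and 3063, 3157 and 3021 CPM in the controls. With daf-2, 726 genes had an r over 0.95. Its nearest patterns rest on that library, since without it the log2 difference was −0.16 for daf-21, −0.43 for Y50D7A.11 and −0.49 for Y48C3A.12, against −0.36, −0.80 and −0.85 with it (edgeR adjusted p = 0.103, 0.0555 and 0.0370). Without bcat-1 RNAi replicate 2 or 3 Y50D7A.11 was called (edgeR adjusted p = 0.0382 and 0.0177), and without control replicate 1 or 2 Y48C3A.12 was not (0.0631 and 0.123). Over the 15 alternatives daf-21 was called in 1, Y50D7A.11 in 6 and Y48C3A.12 in 7. Most like daf-16 were F30F8.9 (r = 0.995), swan-2 (r = 0.994) and lec-1, a galectin (r = 0.993), none of them called (edgeR adjusted p = 0.0860, 0.364 and 0.166), and 158 genes had an r over 0.95. F30F8.9 was called lower with DESeq2's size factors (log2 −0.35, edgeR adjusted p = 0.0356) and with DESeq2 (−0.41, adjusted p = 0.0301). These 3 genes, like daf-16, had a positive log2 value with library size only. These values of r say little beyond the shared group difference and, for daf-2, the low value of bcat-1 RNAi replicate 3.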

How the data were processed

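RNA-seq was made by the authors from total RNA of whole worms, with unstranded TruSeq libraries. According to the methods and the submitters' processing notes, single reads were mapped with TopHat2 2.0.6 to WBcel235. The deposited counts, which are not normalised, were made by the authors with featureCounts from reads with a unique position. For featureCounts, neither a version nor a strand setting is given in the sources used here. The deposited RPKM values were made by the authors from exon length and total counted reads. The exon length implied was whole within 0.001 base for 100% of the 28243 genes with a read.

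Counts of 6 libraries were filtered with filterByExpr (16391 genes left), scaled by TMM and tested with edgeR 4.0.16 (R 4.3.3), quasi-likelihood, group only, two-sided, with Benjamini-Hochberg adjustment over all genes. Standard errors are the log2 difference over the root of F. Alternatives were other scalings and filters, DESeq2 1.42.0, limma 3.58.1 on log2(RPKM + 1) and log2(RPKM + 0.1), and libraries left out. On simulated counts with 16391 genes, edgeR recovered 80.8% of changes of 1 and 100% of changes of 2 on the log2 scale. That simulation changed few genes, equally in both directions, with the same dispersion for all genes and no outlying library. It checks that the code runs as meant and does not measure recovery in these data. Ratios used RPKM and exact permutation tests. Replicate numbers are names only, and the labels do not say that libraries are separate cultures, so p-values measure only how these samples vary, which may be technical spread. Positions, exons and transcripts are from Ensembl release 115 on WBcel235, and its gene models are not those that the authors counted. Merged exons there cover 3685 bases for daf-16 and 8296 for daf-2. The deposited RPKM imply 4404 for daf-16 and 6170 for daf-2.

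The members, lists, settings and naming rule were chosen with earlier results of these data known. Genes were named by rule: the members, bcat-1, the 3 largest called rises and falls of each list, and the 3 genes of at least 10 CPM with the highest r to daf-2 and to daf-16. Other genes named from the lists, markers included, were picked after their values were seen.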

Additional observations from a re-analysis of the deposited data

How the results depend on the processing

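Of the members, age-1, pdk-1, akt-1 and daf-18 kept direction and call under all 15 alternatives, and the other calls depended on the setting, for causes that were not tested. With the upper quartile daf-2 (log2 −0.53), sgk-1 (−0.24) and daf-16 (0.016) were not called, and with at least 1 CPM in 3 samples neither daf-2 (−0.57) nor sgk-1 (−0.29) was. With library size only, limma on RPKM plus 1 and limma on RPKM plus 0.1, daf-2 (−0.42, −0.48 and −0.50) and sgk-1 (−0.13, −0.12 and −0.13) lost their calls, akt-2 was called higher (0.54, 0.50 and 0.55), daf-16 was positive and not called (0.13, 0.12 and 0.13), and 12 pathway regulators were called in each, against 19. ist-1 was not called with DESeq2's size factors (0.33), no filter (0.38) or DESeq2 (0.27). Without control replicate 1 and bcat-1 RNAi replicate 3 together, ist-1 (0.48) and sgk-1 (−0.26) were not called and akt-2 was called higher (0.58). Leaving out 1 library at a time gave −0.85 to −0.34 for daf-2, 0.34 to 0.53 for ist-1, 0.13 to 0.45 for akt-2, −0.51 to −0.26 for sgk-1, 0.19 to 0.79 for bcat-1 and 4 to 7 members called. Not called and turned in sign were, in the order library size only, RPKM plus 1 and RPKM plus 0.1, F30F8.9 (0.019, 0.021 and 0.021), swan-2 (0.16, 0.15 and 0.16, and 0.047 with the upper quartile), lec-1 (0.086, 0.087 and 0.087) and sod-3 (0.21, 0.14 and 0.20). sod-3 also turned with the upper quartile (0.10), at 1 CPM in 3 samples (0.041) and without control replicate 1 and bcat-1 RNAi replicate 3 (0.076), and ran from −0.19 to 0.028 with 1 library left out. No paired analysis was possible because the labels give the groups no shared replicate numbers, and the numbers used here only name samples in order of deposit.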

Other observations

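Close relatives around the chain differed in direction, as was noticed after the values were seen. The 14-3-3 protein genes par-5 and ftt-2, whose products bind phosphorylated DAF-16, went opposite ways. The gene par-5 stood at 755 ± 56.6 CPM after bcat-1 RNAi and 1017 ± 62.3 CPM in the controls (SD, n = 3, log2 −0.43, edgeR adjusted p = 0.0087), and ftt-2 at 410 ± 55.7 CPM after bcat-1 RNAi and 276 ± 20.6 CPM in the controls (log2 0.57, edgeR adjusted p = 0.0034). With library size only and with limma on RPKM plus 1 and plus 0.1, par-5 kept its sign and lost its call (log2 −0.18 in each, adjusted p = 0.0510, 0.0675 and 0.0540), while ftt-2 was called higher in all 15 alternatives run. The TORC2 gene rict-1, whose complex activates SGK-1, fell to 174 ± 15.6 CPM after bcat-1 RNAi, against 256 ± 21.9 CPM in the controls (log2 −0.56, edgeR adjusted p = 0.0019), as did sinh-1 of the same complex.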
